A study of Rattus norvegicus with 13 samples.

Results

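rno-miR-378 and rno-miR-378* are the opposite strands of one hairpin, and they were followed here as 2 of the 677 rat miRNAs on the array, taken by their names in the array design. Agilent 1-colour miRNA arrays were hybridised with RNA from the fat of 13 female Sprague Dawley rats, 1 array per rat. The 7 Control rats were daughters of fathers kept on chow with 9% fat, and the 6 HFD rats were daughters of fathers kept on a diet with 43% fat. Mating took place when the fathers were 15 weeks old, the daughters were weaned at 3 weeks, and their fat was taken at 14 weeks. The daughters of both groups ate chow themselves, and no genetic change or drug was used in either group. The labels name neither the fat depot, the litter nor the father, so sisters could not be modelled, and p-values reflect only the variation among these 13 rats. The comparison addresses whether the diet of a father shows in the miRNAs of his adult daughters' fat. Since bulk fat was measured, fewer cells of a type and less RNA per cell cannot be told apart.

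The hairpin of miR-378 lies in an intron of Ppargc1b, the gene of the transcriptional coactivator PGC-1β, which drives genes of mitochondria and of fat oxidation. Host transcript and hairpin can therefore be made from the same transcription, and Dicer then cuts both strands from the hairpin in equal number before one of them is usually kept in the silencing complex and the other is largely degraded. miR-378 is abundant in muscle and in brown fat and rises as preadipocytes become adipocytes, and mice that lack both strands have been described as resistant to obesity on a high-fat diet. miR-378*, the strand that is usually scarcer, has been described as a repressor of genes of oxidative metabolism in tumour cells.

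Both strands matched the RefSeq miRNA table of rat genome build GRCr8, in which they are called rno-miR-378a-3p and rno-miR-378a-5p. The gene, Mir378, spans chr18:57128922-57128986 on the minus strand, inside the span of Ppargc1b (chr18:57029264-57131466) and 2480 bases from the end of that span at which Ppargc1b starts. The mature strands are shown because every value below rests on telling them apart, with the seed (bases 2 to 8, which pair with target messages) in capitals. miR-378 lies at chr18:57128925-57128945 and miR-378* at chr18:57128962-57128983.
miR-378: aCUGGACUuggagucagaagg
miR-378*: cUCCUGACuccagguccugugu
The seeds differ, and neither was found in any other mature miRNA of the 693 names in that table. Within the hairpin, shown here as the reverse complement of the bases that RefSeq gives for the opposite DNA strand, the capitals mark the mature strands, miR-378* first.
Mir378 hairpin: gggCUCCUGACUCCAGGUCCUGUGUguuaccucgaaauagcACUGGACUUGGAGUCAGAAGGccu
The longest uninterrupted stretch in which the strands can pair with each other by Watson-Crick rules is 9 bases, CUGACUCCA in miR-378* (bases 4 to 12) against bases 9 to 17 of miR-378.

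A further miRNA gene, Mir3557, is annotated on the plus strand at chr18:57128900-57129012, across the whole of Mir378. Its mature strands hold the full complement of both miR-378 strands, and the array has probes for them. They were looked at after the other values were seen.
miR-3557-5p: gCCUUCUGacuccaaguccagu
miR-3557-3p: aCACAGGAccuggagucaggag
Neither miR-3557-5p nor miR-3557-3p was detected on any of the 13 arrays, and both stood at the floor of -5.67 throughout; whether these probes can detect their targets was not tested. All 20 spots of miR-378 and all 20 spots of miR-378* were well above the local background on each of the 13 arrays.

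Levels are given as log2 of the signal relative to a bright reference of the same array, the 75th percentile of its 260 probes that were detected throughout, so 0 means as bright as that percentile. A miRNA was tested if it was detected on at least 6 arrays, which left 176 miRNAs, and the arrays detected 155 to 196 miRNAs each with 0 saturated spots. miR-378 gave a total signal of 1586 to 3269 intensity units per array before scaling, and miR-378* one of 113 to 222. These signals are not compared between the strands as amounts, because probes differ in brightness. The arrays lay on 2 slides, each scanned once: slide 1 held 4 Control and 4 HFD arrays, and slide 2 held 3 Control and 2 HFD arrays. Of the markers of other cell types, those of muscle stood high on the arrays Control 662, Control 664 and HFD 629, and results that may rest on these arrays are given with and without them.

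Both strands were present in the fat of all 13 rats, and neither differed between the groups beyond the spread between rats. miR-378 was 1.11-fold higher in HFD than in Control daughters (95% confidence interval 0.948 to 1.31), and miR-378* was 1.10-fold higher (0.963 to 1.27). The intervals hold no change as well as a rise of about that upper bound, and neither difference passed the test.

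In the Control group miR-378 ran from -0.63 (animal 656) over a median of -0.34 to 0.05 (animal 662). In the HFD group it ran from -0.40 (animal 620) over a median of -0.14 to 0.02 (animal 619). The groups overlapped: the highest of all 13 values was a Control, no HFD array lay above every Control, and 2 Control arrays lay below every HFD array. The means were -0.31 ± 0.22 (SD, n = 7) and -0.15 ± 0.18 (SD, n = 6), and 5 of 6 HFD arrays lay above the Control mean. The difference was 0.16 ± 0.11 (log2, SE; limma, adjusted p = 0.966, unadjusted p = 0.170).

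miR-378* ran in the Control group from -4.37 (animal 656) over a median of -4.12 to -3.77 (animal 662). In the HFD group it ran from -4.17 (animal 620) over a median of -3.95 to -3.76 (animal 624). The same animals were thus at both ends of the Control group, and the same animal was lowest in the HFD group, for both strands. The HFD array of animal 624 was above every Control, just ahead of animal 662, and the groups otherwise overlapped. The means were -4.10 ± 0.19 (SD, n = 7) and -3.96 ± 0.15 (SD, n = 6), again with 5 of 6 HFD arrays above the Control mean. The difference was 0.14 ± 0.09 (log2, SE; limma, adjusted p = 0.966, unadjusted p = 0.142), and 0.071 with normexp background on the spot medians, an alternative added after seeing the data.

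**Figure D1:**
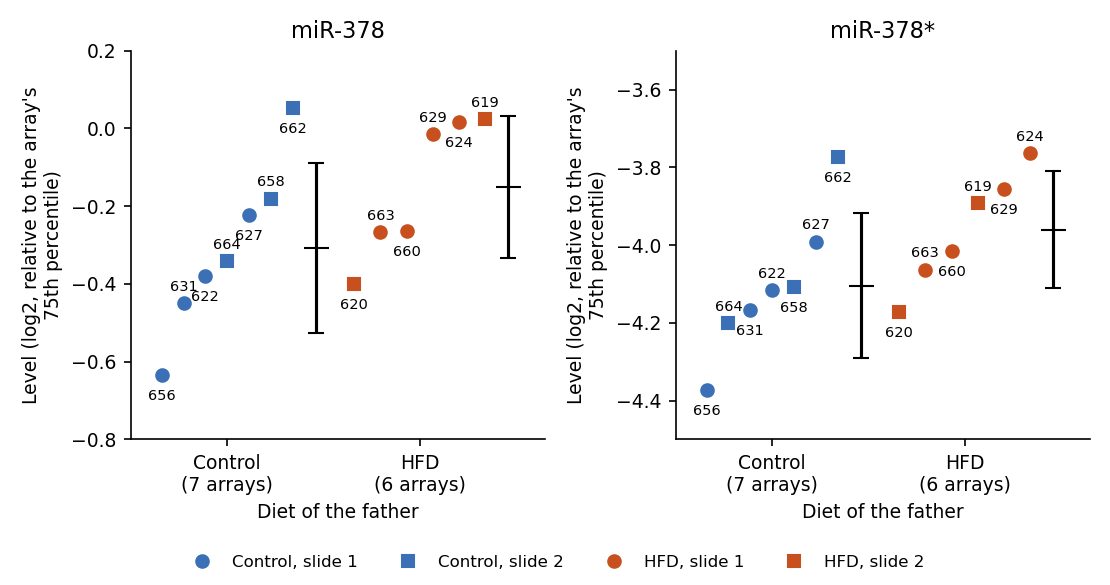
Level of miR-378 (left) and miR-378* (right) on each array, as log2 relative to the array's 75th percentile, by diet of the father, with the animal number beside each point. Bars give the mean ± SD of 7 Control and 6 HFD arrays, and the groups overlap for both strands: miR-378 spans -0.63 to 0.05 in Control and -0.40 to 0.02 in HFD.

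Neither strand stood out from the other miRNAs in this comparison. Of the 176 miRNAs tested, 0 (0%) passed an adjusted p of 0.05 by limma, and 2 had an unadjusted p under 0.05, neither of them a strand of miR-378. The median difference of all tested miRNAs was 0.003 (log2), and 91 were higher and 85 lower in HFD. By unadjusted p, miR-378* ranked 13 and miR-378 ranked 20 among the 176. Counting miR-378 itself, 31 miRNAs differed by at least as much as miR-378 in either direction. The lowest adjusted p of any miRNA was 0.966.

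Without Control 662, the Control array with the highest level of both strands, the differences were 0.22 and 0.20. Their unadjusted p by limma was 0.044 and 0.027, and the adjusted p was 0.930 for both. In that fit 5 of the 176 miRNAs, both strands among them, had an unadjusted p under 0.05. Without Control 656, the Control array with the lowest level of both strands, the differences were 0.10 for miR-378 and 0.099 for miR-378*. Leaving out any other single array kept both differences between these bounds.

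Within an array, the spots of miR-378 scattered little relative to these differences, and those of miR-378* scattered more. Each strand was read by 2 probes with 7 to 10 unflagged spots each per array. The spots of a miR-378 probe scattered with a median SD of 0.040 and 0.035 (log2) on an array, and those of a miR-378* probe, which is dimmer, with 0.087 and 0.099. The highest SD was 0.232, for a miR-378* probe on Control 662. Over the 13 arrays the probes of miR-378 correlated at r = 0.992 and those of miR-378* at r = 0.964, a description of 2 probes read on the same RNA. The HFD minus Control difference was 0.159 and 0.155 with the miR-378 probes and 0.154 and 0.134 with the miR-378* probes. With 1 array per rat, differences between rats and differences in labelling or hybridisation cannot be told apart. The SD over the 13 arrays was 0.21 for miR-378 and 0.18 for miR-378*, beside a median of 0.16 over the 146 tested miRNAs that lay above the floor on all arrays. From the lowest to the highest rat miR-378 spanned 1.61-fold and miR-378* 1.52-fold.

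The strands moved together from rat to rat. Pearson's r between them was 0.953 and Spearman's rho 0.901 over 13 arrays (permutation p = 2e-05 and 6e-05; adjusted over 3 correlations 6e-05 and 0.00018). Without the arrays farthest from the median of miR-378, Control 656 and Control 662, r was 0.912 and rho 0.855 over 11 arrays (permutation p = 0.00026 and 0.00167). On slide 1 alone, r was 0.991 and rho 1 over 8 arrays (exact permutation p = 2.48e-05 and 4.96e-05), that is, both strands put the 8 rats in the same order. Slide 2, with 5 arrays, was too small for a correlation. With quantile normalization r over all 13 arrays was 0.865. With normexp background on the spot medians, an alternative added after seeing the data, it was 0.807. Among the 144 other tested miRNAs above the floor on all arrays, none correlated with either strand as highly as the strands did with each other. The highest r was 0.768 with miR-378 and 0.645 with miR-378*, and the medians were 0.008 and -0.012. Both strands share the array, its scaling and its RNA, and so do all the miRNAs set beside them.

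**Figure D2:**
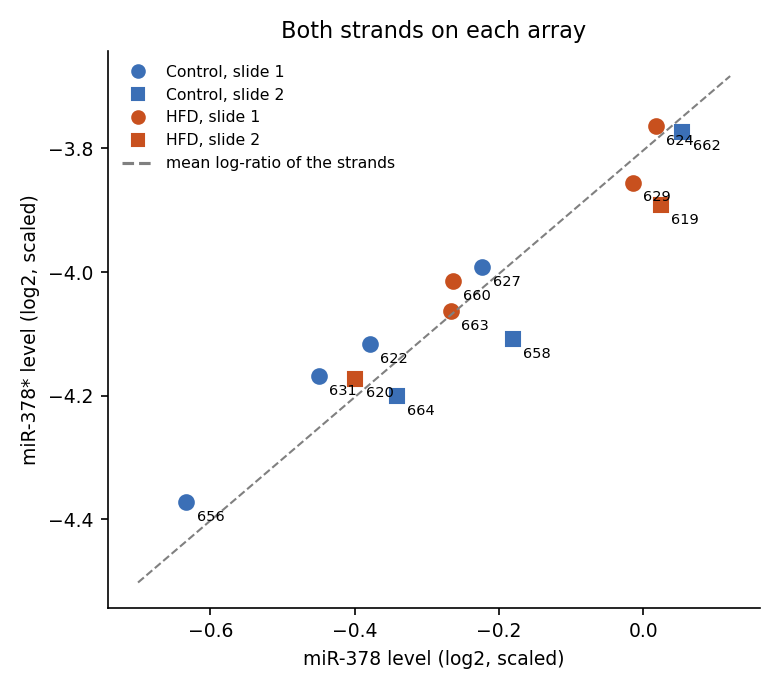
Level of miR-378* against miR-378 (both log2, scaled) on the 13 arrays, colours for diet group and shapes for slide, with the animal number beside each point. The dashed line marks a constant log-ratio of the strands at its mean over the arrays; the points follow it (r = 0.953), with Control 656 at the lower end and HFD 624 and Control 662 at the upper end.

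The log-ratio of the strands, miR-378 minus miR-378*, varied far less than either strand. Its size depends on the brightness of the probes, so only its variation is read here. It ran from 3.72 to 3.93 (SD 0.067 over 13 arrays), against ranges of 0.69 for miR-378 and 0.61 for miR-378*. It was 3.80 ± 0.08 (SD, n = 7) in Control and 3.81 ± 0.06 (SD, n = 6) in HFD. The difference of 0.013 lay within that spread (exact permutation test over all 1716 splits, two-sided p = 0.735; smallest possible p 0.000583). On slide 1 alone it was 0.051 (8 arrays, exact permutation p = 0.057), and with normexp background it was 0.092 over all arrays (exact permutation p = 0.196). By slide, the log-ratio averaged 3.77 on the 8 arrays of slide 1, from 3.72 to 3.84, and 3.86 on the 5 arrays of slide 2, from 3.77 to 3.93. The slides overlapped, and the 2 highest log-ratios, of Control 658 and HFD 619, were both on slide 2. Next came Control 664 (3.86), HFD 629 (3.84, on slide 1) and Control 662 (3.83). The same arrays had the highest mean levels of the muscle markers miR-1, miR-133b and miR-499, from -2.94 to 0.50. Every other array had a log-ratio of at most 3.80 and a muscle mean of at most -4.35. The part of slide or muscle RNA in the log-ratio was not tested.

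Other hairpins gave a yardstick for this. Of 259 pairs of strands on the array, 14 had both strands tested and above the floor on all 13 arrays. The pair of miR-378 had the second highest r of these 14, after miR-142-5p and miR-142-3p, white blood cell miRNAs, at 0.972. The miR-30a pair followed at 0.939 and the miR-30e pair at 0.932. The 13 other pairs ran from -0.16 to 0.97 with a median of 0.712, and 1 of them, miR-652 with miR-652*, lay below 0. A strand counted as above the floor where any of its probes was. Some strands stood near the floor of -5.67: the Control means of miR-29a*, miR-193* and miR-29c* were -5.49, -5.31 and -5.30. Their pairs had r of 0.333, 0.342 and 0.502. The pairs of miR-322, miR-324 and miR-652, at 0.123, 0.022 and -0.16, stood further above it. The part of the floor in r was not tested. The SD of the log-ratio ran from 0.057 to 0.226 in the other pairs with a median of 0.132, and that of miR-378, 0.067, was the third lowest. The first strand of the miR-652 pair had an SD of 0.076. That of the miR-193 pair, with r of 0.342, had an SD of 0.205, beside 0.210 for miR-378. The part of this spread in r was not tested. These values are a description over the same 13 arrays, and the difference between pairs was not tested. The order of the pairs under other scalings or backgrounds is not given here.

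**Figure D3:**
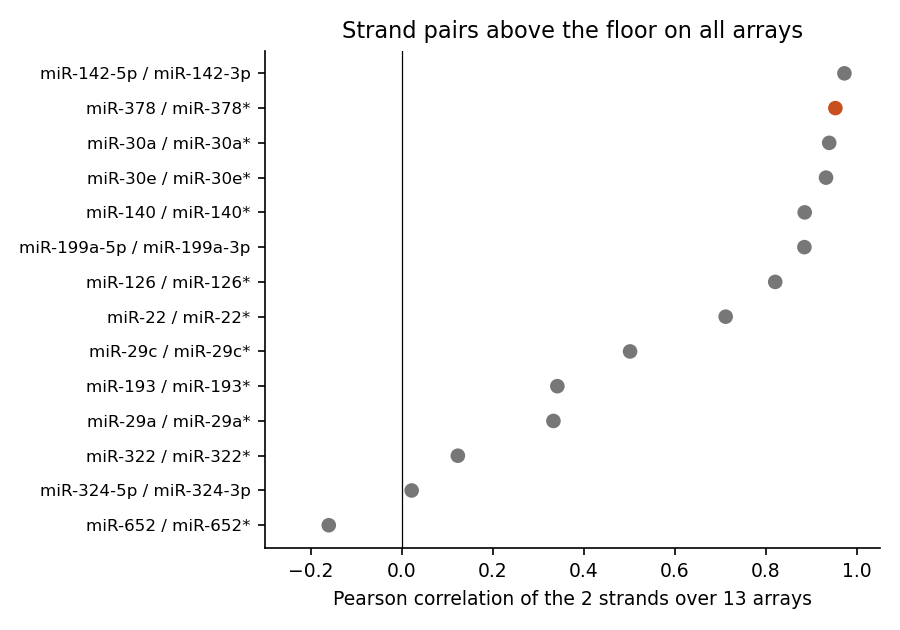
Pearson correlation over 13 arrays (horizontal axis) between the strands of each of the 14 hairpins with both strands tested and above the floor on all arrays, in order of r. The pair of miR-378 (orange) lies at 0.953, second to the miR-142 pair at 0.972.

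Within the slides, the strands again behaved alike, and the groups differed more on slide 1 than on slide 2, though the difference between slides did not pass its test. On slide 1 miR-378 was at -0.38, -0.22, -0.45 and -0.63 in the 4 Control rats and at 0.02, -0.01, -0.26 and -0.27 in the 4 HFD rats. The groups overlapped only through Control 627, at -0.22, which lay above HFD 660 and HFD 663. The difference on slide 1 was 0.29 ± 0.11 for miR-378 and 0.24 ± 0.10 for miR-378* (log2, SE; limma on this slide alone, adjusted p = 0.423 and 0.474, unadjusted p = 0.029 and 0.046). On that slide 17 of the 176 miRNAs (9.66%) had an unadjusted p under 0.05, and 0 passed after adjustment.

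On slide 2 miR-378 was at -0.18, 0.05 and -0.34 in the 3 Control rats and at 0.02 and -0.40 in the 2 HFD rats. HFD 620 was the lowest on the slide, and HFD 619 lay below Control 662 only. The difference there was -0.03 ± 0.19 for miR-378 and -0.005 ± 0.17 for miR-378* (log2, SE; limma, adjusted p = 0.946 and 0.987). The change of the diet difference from slide 1 to slide 2 was -0.32 ± 0.21 for miR-378 (limma interaction, adjusted p = 0.458) and -0.24 for miR-378* (adjusted p = 0.504). In this interaction 1 of the 176 miRNAs (0.568%) passed, the red blood cell miRNA miR-451, at -1.99 ± 0.35 (adjusted p = 0.028); it is named because the count is 1. With the slide as a block, the diet difference over all arrays was 0.17 for miR-378 and 0.15 for miR-378* (adjusted p = 0.908 for both). With each array scaled to the 75th percentile over all probes, the interaction was -0.099 for miR-378 and -0.021 for miR-378*. With the muscle markers as a covariate it was -0.147 and -0.102 (limma, adjusted p = 0.80 and 0.87). With the red blood cell markers as a covariate it was -0.606 and -0.557 (limma, adjusted p = 0.999 for both). That covariate itself separated the groups in opposite directions on the slides, so this fit can hardly tell it apart from the interaction.

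Red blood cell markers moved with the groups on both slides, in opposite directions. The mean level of the 3 red blood cell markers, miR-451, miR-144 and miR-144*, was -2.55 to -2.04 in the Control rats of slide 1. In the HFD rats of that slide it was -1.88 to -0.66, with no overlap. On slide 2 it was -1.206 to -1.1 in the 3 Control rats and -1.801 to -1.761 in the 2 HFD rats, again with no overlap. The HFD minus Control difference of that mean on slide 2 was -0.625. For the muscle mean the difference was 1.43 on slide 1, where HFD 629 lies, and -2.57 on slide 2, where Control 662 and Control 664 lie. The other HFD arrays of slide 1 had muscle means of -5.06 to -4.35, overlapping its Control arrays at -4.93 to -4.51. On slide 1 the means of the remaining marker lists differed by -0.201 (epithelial) to 0.001 (white blood cells). With the red blood cell markers as a covariate, an alternative added after seeing the data, the diet difference was 0.11 for miR-378 and 0.12 for miR-378* (limma, adjusted p = 0.703 and 0.594). The part of red blood cells in the miR-378 values was otherwise not tested.

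**Figure D4:**
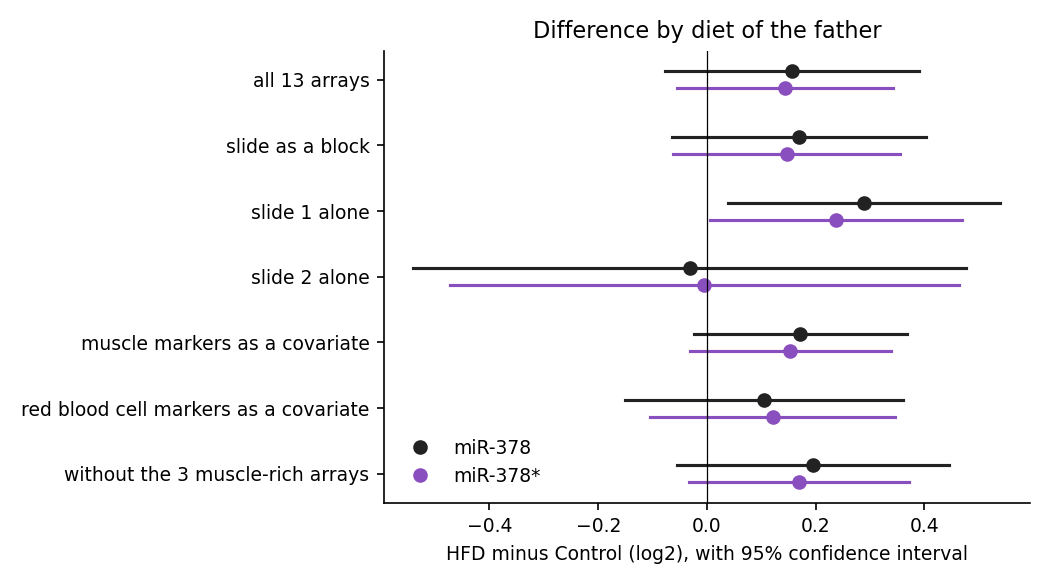
Difference in level between HFD and Control (log2, points) with its 95% confidence interval from limma (lines) for miR-378 (black) and miR-378* (purple), over all 13 arrays, with covariates, within slides and without 3 arrays. The interval holds 0 in each setting but slide 1 alone, where it ran from 0.04 to 0.54 for miR-378 before adjustment over the 176 miRNAs.

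Because miR-378 is abundant in muscle, its level was set against the muscle markers. miR-1 and miR-133b, which act in skeletal and heart muscle, and miR-499, made from an intron of a myosin gene, were the 3 tested of 7 listed muscle markers. Their mean level was 0.46 (Control 662), -0.13 (Control 664) and 0.50 (HFD 629) on the muscle-rich arrays and -5.06 to -2.30 on the 10 others, among which Control 658 (-2.94) and HFD 619 (-2.30) were highest. miR-1 reached 2.50, 1.94 and 2.74 on the muscle-rich arrays.

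On the muscle-rich arrays miR-378 was at 0.05, -0.34 and -0.01, the first of them the highest of all arrays and the second below the median of the HFD group. Arrays with little muscle signal reached the same level: HFD 624 had miR-378 at 0.02 with a muscle mean of -4.35. Across the 10 arrays outside the muscle-rich ones, r between the muscle mean and miR-378 was 0.554 and rho 0.455 (permutation p = 0.095 and 0.190; adjusted 0.143 and 0.285). For miR-378* r was 0.265 and rho 0.212 (permutation p = 0.434 and 0.560; adjusted 0.434 and 0.560). Without Control 658 and HFD 619, r fell to 0.132 and 0.068 over 8 arrays (exact permutation p = 0.768 and 0.879). The muscle means of these 8 arrays spanned only -5.06 to -4.35, so they cannot show whether a relation holds over the wider range. On slide 1, with 7 of the 10 arrays, r was 0.171 for miR-378 and 0.116 for miR-378* (exact permutation p = 0.724 and 0.818), and slide 2 had 3 of them, too few for a value. Over all 13 arrays no pooled r with the muscle mean is given, since miR-1 and miR-133b put the arrays in clusters. The levels of miR-499 ran from -4.68 to -3.49 without such a gap. Its r with miR-378 was 0.748 over 13 arrays and 0.738 over the 10 outside the muscle-rich ones. With miR-378* it was 0.618 and 0.547. These r carry no test, and miR-499 is among the 5 miRNAs nearest to miR-378 by r in these same data. On the 8 arrays of slide 1, which hold neither Control 658 nor HFD 619, r of miR-499 was 0.746 with miR-378. With miR-378* it was 0.672 there. The part of muscle RNA in the levels of either strand was not tested further.

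The diet difference was about as large without the muscle-rich arrays. It was 0.20 ± 0.11 for miR-378 and 0.17 ± 0.09 for miR-378* (log2, SE; 5 Control against 5 HFD, limma, adjusted p = 0.659 for both). With the muscle mean as a covariate it was 0.17 and 0.15 (adjusted p = 0.863 for both).

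**Figure D5:**
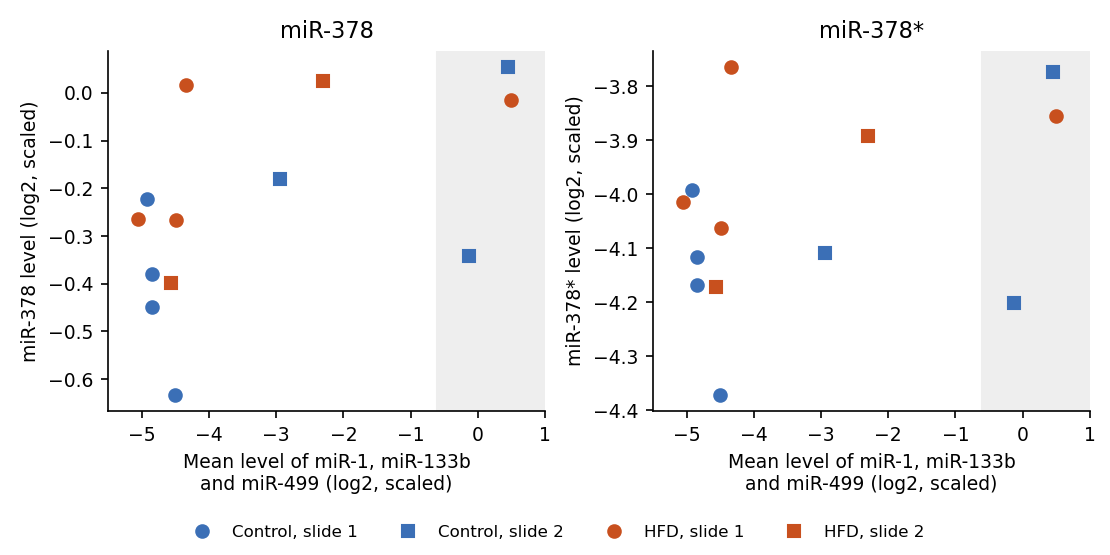
Level of miR-378 (left) and miR-378* (right) against the mean level of the muscle markers miR-1, miR-133b and miR-499 (all log2, scaled) on the 13 arrays, colours for diet group and shapes for slide. The shaded area holds the muscle-rich arrays, whose muscle means are 0.46, -0.13 and 0.50; their miR-378 levels (0.05, -0.34 and -0.01) lie within the range of the other arrays but for Control 662.

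Some other miRNAs resembled miR-378 in their pattern over the rats, by Pearson's r over the 13 arrays among the 144 miRNAs above. The nearest to miR-378 were miR-30e (0.768), miR-499 (0.748), miR-30e* (0.728), miR-101b (0.685) and miR-30c (0.684). The nearest to miR-378* were miR-30e (0.645), miR-499 (0.618), miR-29c* (0.610), miR-30b-5p (0.598) and miR-494 (0.596). Without the muscle-rich arrays, over 10 arrays, r with miR-378 was 0.670 for miR-30e, 0.738 for miR-499 and 0.530 for miR-30c. On the 8 arrays of slide 1, r with miR-378* was 0.636 for miR-30e, 0.672 for miR-499 and 0.828 for miR-494. Without the muscle-rich arrays, r with miR-378* was lower for miR-30e (0.421), miR-499 (0.547), miR-29c* (0.464) and miR-494 (0.539), and 0.611 for miR-30b-5p.

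The nearest miRNAs are shown because part of them share a seed with each other, though none shares one with miR-378, where the RefSeq table holds the strand (6 of 8 names). miR-30e and miR-30c have the seed GUAAACA, also that of miR-30a-5p.
miR-30e: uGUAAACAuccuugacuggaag
miR-30c: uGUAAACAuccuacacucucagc
miR-499: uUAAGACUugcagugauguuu
miR-101b: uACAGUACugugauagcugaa
miR-29c*: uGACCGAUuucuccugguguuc
miR-494: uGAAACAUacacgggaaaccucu
By diet of the father, none of these differed by as much as miR-378 did: miR-30e by 0.03 ± 0.09, miR-499 by -0.10 ± 0.20, miR-30e* by 0.04 ± 0.08, miR-30b-5p by 0.07 ± 0.05 and miR-494 by 0.08 ± 0.07 (log2, SE), and miR-101b, miR-30c and miR-29c* by less than 0.002. None passed the test.

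miRNAs that, like miR-378, have been tied to brown and beige fat did not pass the test either. Of 14 listed, 10 were tested, of which 7 were higher and 3 lower in HFD, 0 passed (against 0% of all 176) and the median difference was 0.10 beside 0.003 for all tested. miR-193 and miR-365, of families described in brown adipocyte differentiation, differed by 0.19 ± 0.10 and 0.14 ± 0.09 (log2, SE), close to the values of miR-378, and miR-203 by 0.17 ± 0.12 (limma, adjusted p = 0.966 for each). Of 34 listed miRNAs that, like miR-378, lie in introns of protein-coding genes, 27 were tested, of which 17 were higher and 10 lower with a median of 0.02. Among them, miR-33, of a gene of sterol control, differed by 0.01, and miR-103 and miR-107, of pantothenate kinase genes, by 0.08 and 0.03.

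In the remaining lists 0 miRNAs passed the test as well. Of miRNAs that promote adipocyte differentiation 6 of 13 tested were higher and 7 lower (median -0.001), and of those that restrain it 1 of 8 was higher and 7 were lower (median -0.13). Those of insulin signalling and obesity split 6 to 6 (median -0.01), and of 8 miRNAs listed as abundant in fat, all of which were tested, 5 were higher (median 0.11), with miR-143 at -0.35 ± 0.34 and miR-26a at -0.03 ± 0.05. Among markers of other cells, all 3 of red blood cells were higher (median 0.55) and all 3 of muscle lower (-0.18). Of white blood cell markers 1 of 5 was higher (-0.10), and both endothelial ones were higher (0.08). Higher were also 1 of 2 epithelial ones (-0.01), all 3 of liver and gut (0.10) and 1 of 3 neural ones (-0.07). Above the floor were miR-144* on 10 arrays, miR-122 on 11, miR-192 on 8 and miR-194 on 5. Their differences thus rest in part on values at the floor.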

How the data were processed

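Per the file headers, the authors read the arrays with Feature Extraction 10.7.3.1 (Agilent), which gave each spot a processed intensity on a linear scale, with the background subtracted and no normalization between arrays. The deposited value table is on a log2 scale: set beside the scanner files, its columns equal log2 of the program's total gene signal, uncentred. Exceptions were 26 of 2569 values, off by over 2e-04, among them miR-378 of Control 627, so the table served only as an alternative. RMA and Partek are listed in the submitters' processing notes, with no role given.

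Spots that were controls or carried an outlier flag were dropped. A probe's signal was the mean of its remaining spots, scaled by the 75th percentile among probes that every array detected, with a floor of 0.0197 (log2 -5.67); log2 values were then averaged over the probes of a miRNA. No order is read among values at the floor. A probe was detected where at least 0.5 of its spots were well above background, and a miRNA where 1 of its probes was. limma 3.58.1 (R 4.3.3; lmFit, eBayes; two-sided) compared the groups over 176 miRNAs with Benjamini-Hochberg adjustment at 0.05, and an exact permutation test compared the strand log-ratio. Correlations had permutation tests of 100000 resamples, or exact ones under 10 arrays (scipy 1.17.1). The number of arrays limits the precision.

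The members and lists were chosen with earlier results of these data known. Named were both strands, for each the 5 miRNAs above the floor on all arrays with the highest r, and up to the first 3 tested miRNAs of a list; others are named where a strand pair or a single call is described. miRNAs are called as on the array, and were set to RefSeq names by their usual equivalents. Alternatives were other scalings, background, floor, filters, the value table, slide, animal number range, array weights, marker covariates and leaving out arrays. Replicate numbers are animal numbers that the groups do not share, so no samples were paired.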

Additional observations from a re-analysis of the deposited data

Results flagged for a closer look

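Of 12 sets of values checked for an array far from the rest of its group (both strands, their log-ratio, the muscle mean, and both strands in the deposited value table, in each group), 2 had one; chance flags about 1 in 20. In the value table miR-378 of Control 627 stands at 14.03 (log2), while the total gene signal of the same array in its scanner file is 10.71, a ratio of 10.01. Of the 26 values of the table that differ from the scanner files, 9 are about 10 times higher, 6 are 100.5 to 101 times higher, 9 are 1021 to 1053 times higher and 2 differ by less; they fall on 22 miRNAs and touch all 13 arrays. miR-378* of Control 662 stands at 7.624 in the value table, above the other Control arrays, and equals the scanner value; after scaling to the array's bright probes, as in the report, it was no longer set apart. No other set of values had an array that far out.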

How the results depend on the processing

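No setting brought either strand, their log-ratio or the slide interaction past an adjusted p of 0.05, and 0 miRNAs were called for diet under each of 34 alternatives. Against the value table as deposited, the miR-378 difference was -0.293, the log-ratio difference -0.462, the strands' r -0.029 and the r of miR-378 with muscle -0.357; centred, these were -0.323, -0.462, 0.437 (no longer past the threshold) and -0.173. Without the 26 differing values the table gave 0.137 and an r of 0.973, so those values account for the change. Slide 2 alone gave -0.031 for miR-378, -0.0048 for miR-378* and -0.026 for the log-ratio. The log-ratio difference was also -0.0093 with flagged spots kept and -0.016 with the red blood cell covariate. With normexp background on the spot medians, added after seeing the data, the miR-378* interaction was 0.00051 and the miR-378* diet difference 0.071. The strands' r was 0.807 with that background and 0.865 with quantile normalization. The r of miR-378* with muscle was -0.0023 with the percentile over all probes, -0.145 with the median of the detected probes and -0.039 with total gene signal; for the last 3 results the cause was not tested.

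Leaving out each array in turn gave 0.10 to 0.22 for miR-378, 0.099 to 0.20 for miR-378*, -0.0083 to 0.035 for the log-ratio (-5.9e-05 without Control 631 and -0.0083 without HFD 619), -0.531 to -0.109 and -0.383 to -0.102 for the interactions, 0.931 to 0.971 for the strands' r, and 0.289 to 0.657 and -0.023 (without HFD 619) to 0.365 for r with muscle. Not run were normexp on mean signals, which the files used here do not give, the scan as a random block, which equals the slide, and, for miR-378*, a floor raised 4 times, above which it lay on 1 array. No scaling moved the median of all miRNAs by over 0.1.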
